A study of Mus musculus with 4 samples.

Results

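A set of 102 of the 32285 counted features encodes the proton-pumping complexes I, III and IV of the mitochondrial inner membrane, the ATP synthase (complex V) and assembly factors of complex I. They were chosen by a rule on gene symbols that itself uses no measured value. Symbols beginning with mt-Nd, mt-Co, mt-Cytb or mt-Atp gave the genes of the mitochondrial genome. Symbols beginning with Ndufa, Ndufb, Ndufc, Ndufs, Ndufv, Uqcr or Atp5, and those made of Cox4 to Cox8 with a following letter, gave the nuclear genes. The 13 mitochondrial members comprise 7 subunits of complex I, 1 of complex III, 3 of complex IV and 2 of complex V. The 89 nuclear members comprise 39 subunits and 8 assembly factors of complex I, 8 subunits of complex III, 17 of complex IV and 17 of complex V. Complex II, whose subunits are all nuclear, has no member under these names and was read from a separate list.

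In oxidative phosphorylation, electrons from NADH enter at complex I and pass through ubiquinone, complex III and cytochrome c to oxygen at complex IV, while protons are moved across the inner membrane. The ATP synthase lets the protons back and makes the ATP that neurons spend largely on ion pumping after electrical activity. The mitochondrial genome encodes a few core subunits and is transcribed inside the organelle as long precursor RNAs, whereas the nuclear genes are transcribed in the nucleus and their proteins are imported into the organelle.

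The data are single-nucleus RNA counts from the hippocampus of mice labelled ArcCreERT2::eYFPflx, in 2 trained and 2 untrained libraries from 2 mice of each group. The trained mice had learned active place avoidance, in which a mouse on a rotating arena keeps out of a zone where it receives a shock, and the untrained mice were the controls. Hippocampi were collected on day 3 after the retention test, with no recall session in between. The contrast therefore compares trained with untrained mice at that time, and these counts hold no measure of memory. Every group carried the Arc-driven, tamoxifen-inducible Cre and the floxed eYFP reporter, which mark neurons that expressed Arc at the retention test; the labels name no sort of marked nuclei, and the mark was not used here. With 2 libraries in each group, p-values measure only the spread between these libraries, and an exact permutation of the labels cannot go below p = 0.333. Values are given below in the order trained 1, trained 2, untrained 1 and untrained 2 wherever 4 are listed.

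Each captured RNA molecule was counted once by its unique molecular identifier (UMI), and levels are given as CPM, a gene's UMIs per 1000000 UMIs of the same sum. The libraries held 73013, 65863, 79810 and 41903 barcodes, with 23155826 to 39749125 UMIs in all. Barcodes with at least 600 UMIs, called nuclei here, numbered 6019, 12206, 16916 and 11969, with median UMI counts of 736, 887, 957.5 and 1079. Barcodes with fewer than 400 UMIs, called low-UMI barcodes, numbered 55744, 47908, 51573 and 26378, with medians of 216, 222, 312 and 306. They are too shallow for most nuclei, and free RNA in them was not separated from sparse nuclei. Any pair of libraries shared 748 to 1596 barcode sequences, which is 1.79% to 2.21% of the smaller library. Markers of dentate granule, CA1 and CA3 neurons were found in all 4 libraries, beside markers of thalamic and cortical excitatory neurons. A pair of libraries stood apart for the genes described here. Untrained 1 was the highest of the 4 for the nuclear-genome members at every depth, and trained 1 was the lowest for the mitochondrial members at every depth, so results that rest on them are also given without them.

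In nuclei the 13 mitochondrial members together took 0.301, 0.315, 0.473 and 0.421% of all UMIs, in library order. Both trained libraries lay below both untrained ones. The 88 detected nuclear members took 1.03, 0.964, 1.58 and 1.05%, where untrained 1 stood alone and the other 3 libraries lay close together. In low-UMI barcodes both shares were higher in every library, at 0.690, 1.18, 1.21 and 1.33% for the mitochondrial and 2.64, 3.49, 4.52 and 3.56% for the nuclear members. The ratio of mitochondrial to nuclear member UMIs was 0.293, 0.327, 0.300 and 0.401 in nuclei and 0.261, 0.339, 0.268 and 0.374 in low-UMI barcodes, and the trained and untrained libraries overlapped in both. Exact 95% binomial intervals of these shares, which cover counting error only, are within 1.63% of the share itself. The change of the shares with UMIs per barcode, given below, is not part of these intervals. Among nuclei, 12.4, 7.59, 1.40 and 2.07% of barcodes held no mitochondrial member UMI at all, against 23.6, 9.53, 3.26 and 3.52% of low-UMI barcodes.

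The shares fell with depth in every library. From barcodes of 200 to 299 UMIs to barcodes of 1000 to 1999 UMIs, the mitochondrial share went from 0.715, 1.21, 1.23 and 1.30% to 0.229, 0.260, 0.408 and 0.398%. Over the same steps the nuclear share went from 2.74, 3.58, 4.69 and 3.66% to 0.800, 0.796, 1.36 and 0.991%. The single step against this order was in untrained 2, whose mitochondrial share was 1.30% at 200 to 299 UMIs and 1.35% at 300 to 399 UMIs. At matched depth the trained libraries stayed lower for both sets of members. At 600 to below 1000 UMIs the mitochondrial members took 0.320, 0.388, 0.606 and 0.586%. The nuclear members took 1.09, 1.18, 2.05 and 1.45% there, with untrained 1 the highest and untrained 2 also above both trained libraries.

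**Figure D1:**
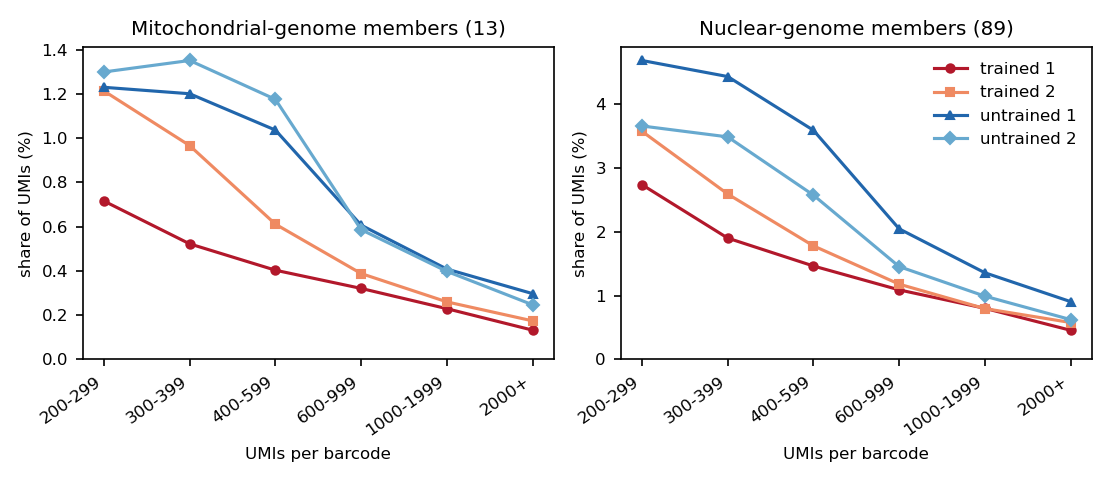
Share of all UMIs (percent, linear axis from 0) taken by the 13 mitochondrial members (left) and the 89 nuclear members (right) against UMIs per barcode, with 1 line for each of the 4 libraries. Both shares fall with depth, and at 600 to below 1000 UMIs the trained libraries hold 0.32% and 0.388% of mitochondrial members against 0.606% and 0.586% in the untrained ones; the last point of trained 1 rests on 15 barcodes.

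Among the mitochondrial members mt-Co1 and mt-Co3, both of complex IV, were the most abundant in nuclei. The catalytic subunit gene mt-Co1 had 706 and 705 (trained) and 1141 and 871 (untrained) CPM, and mt-Co3, a further core subunit, had 715 and 757 (trained) and 1068 and 969 (untrained). The trained libraries were close to each other and below both untrained ones for both genes. mt-Co2, which carries the copper centre that takes electrons from cytochrome c, had 322 and 363 (trained) and 563 and 519 (untrained). The membrane subunit of the ATP synthase, mt-Atp6, had 352 and 374 (trained) and 549.6 and 535 (untrained), and its neighbour mt-Atp8 had 11.3 and 18.3 (trained) and 24.6 and 24.1 (untrained). Again no trained library reached an untrained one. In complex III, mt-Cytb, the cytochrome b gene, had 180.0 and 182 (trained) and 265 and 248 (untrained) CPM.

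The complex I genes of the mitochondrial genome ranged more widely. mt-Nd4 had 265 and 258 (trained) and 387 and 365 (untrained) CPM, mt-Nd2 had 168, 199, 302 and 302 in library order, and mt-Nd1 had 143, 141, 207 and 190.2. mt-Nd5 followed with 61.7, 61.8, 89.4 and 83.7, and mt-Nd3 with 32.9, 40.1, 54.9 and 45.0. In these 5 genes both trained libraries were below both untrained libraries. mt-Nd4l, with 37.5, 32.9, 49.3 and 35.8, and mt-Nd6, with 20.4, 16.3, 29.5 and 17.7, were the pair in which the groups overlapped. mt-Nd6 is the only protein-coding gene on the light strand of the mitochondrial genome. Because mt-Atp8 overlaps mt-Atp6 and mt-Nd4l overlaps mt-Nd4, reads in the shared bases could have been counted for either gene.

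Compared per kilobase of the longest annotated transcript, the mean level in nuclei ran from 1119 CPM per kb for mt-Co3 over 665 for mt-Atp6, 645 for mt-Co2 and 554 for mt-Co1 to 40.7 for mt-Nd5 and 40.4 for mt-Nd6. The nuclear members reached the same range, led by Cox8a at 825 and Cox4i1 at 741. Counts come from the 3' end of polyadenylated RNA, so a level per kilobase orders the genes only roughly.

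The nuclear genes with the most UMIs in each complex were read in full. In complex I, Ndufa4 had 375 and 344 (trained) and 585 and 351 (untrained) CPM; this gene is named for complex I, and its protein has since been placed in complex IV. Ndufb9, an accessory subunit, had 167, 183, 284 and 207 in library order, and Ndufa13, also known as a cell death regulator (GRIM-19), had 157, 163, 298 and 186. In complex III, the small subunit genes Uqcrh, Uqcrq and Uqcr11 had 172, 157, 273 and 184, then 183, 147, 265 and 169, then 164, 151, 258 and 136. Untrained 1 was the highest library for all of these, and untrained 2 lay inside the trained range for Ndufa4 and Uqcrq and below it for Uqcr11.

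In complex IV, Cox4i1, the common isoform of subunit 4 that binds ATP as a regulator, had 497 and 489 (trained) and 771 and 511 (untrained) CPM. Cox8a had 393, 367, 670.1 and 385 and Cox6c had 267, 271, 484 and 296. In complex V, Atp5b, the catalytic beta subunit, had 304, 287, 401 and 316, Atp5h, of the peripheral stalk, had 221, 201, 325 and 242, and Atp5g1, 1 of the 3 genes for the proton-carrying subunit c, had 220.0, 206, 325 and 217. For Cox8a and Atp5g1 untrained 2 lay within the trained range, and in the other 4 it lay above both trained libraries. Untrained 1 was again the highest.

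**Figure D2:**
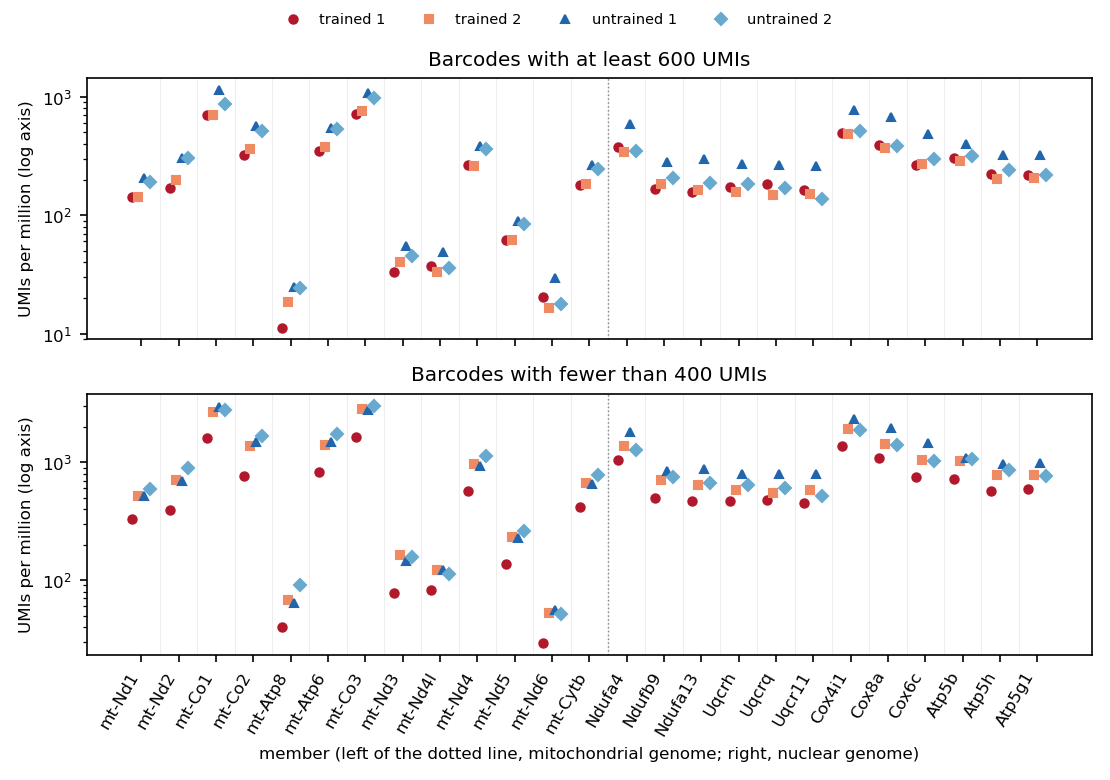
CPM (log axis) of the 13 mitochondrial members, left of the dotted line, and the 3 nuclear subunits with the most UMIs in each of complexes I, III, IV and V, right of it, in nuclei (top) and low-UMI barcodes (bottom), with 1 symbol for each library. In nuclei mt-Co1 lies at 706 and 705 (trained) and 1141 and 871 (untrained), and among the nuclear genes untrained 1 lies above the other 3; in low-UMI barcodes trained 1 is the lowest library for every gene shown.

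Several subunits have a second gene that is used in particular tissues, and in these nuclei 1 copy dominated. Per kilobase, Cox4i1 stood at 741 CPM against 1.08 for Cox4i2, the form known from lung. Cox6a1 stood at 226 against 7.05 for Cox6a2, and Cox7a2 at 333 against 3.98 for Cox7a1, both minor copies being the heart and muscle forms. For subunit 6b the levels were 311 for Cox6b1 and 5.77 for Cox6b2, the testis form. Cox7b stood at 187 and Cox7b2 at 21.1. Cox8a stood at 825 and Cox8b at 3.3, while Cox8c had 0 UMIs in every library, which allows up to 0.0596 CPM over the nuclei of all 4. Ndufa4 stood at 336 and Ndufa4l2, a gene known for induction in low oxygen, at 0.819. The 3 subunit c genes were the exception, with 201 for Atp5g3, 134 for Atp5g2 and 51.4 for Atp5g1, whose annotated longest transcript is several times the length of the others. Without division by length Atp5g1 was the highest of these, with mean levels of 242 CPM for Atp5g1, 173 for Atp5g3 and 101 for Atp5g2. Reads shared by such copies, or by processed pseudogenes of these genes, could have been assigned to either.

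The promoters of the nuclear members were searched for the motifs of NRF1 and of GABP, transcription factors long known for binding promoters of respiratory genes. RefSeq promoters (build GRCm38.p6) were matched by symbol for 71 of the 89 nuclear members, and the 250 bases before the start site were read on both strands. The NRF1 motif, spelled GCGCA, any base, GCGC, was present in 12 of the 71 (16.9%), against 1144 of 27025 genes (4.23%). The GABP motif, spelled CCGGAAG, was present in 13 (18.3%), against 2115 (7.83%). Both were present in 2, Atp5h and Cox6a1, which are shown together with Cox7b2, the complex IV gene whose values below differ from those of the other members and which holds neither motif. Each window lies on the minus strand, is printed 5′ to 3′ and ends just before the start site; capitals mark the motif matches, with CTTCCGG as the GABP motif read from the other strand. The windows are chr11:115419920-115420169 for Atp5h, chr5:115348959-115349208 for Cox6a1 and chr5:71548206-71548455 for Cox7b2.
Atp5h: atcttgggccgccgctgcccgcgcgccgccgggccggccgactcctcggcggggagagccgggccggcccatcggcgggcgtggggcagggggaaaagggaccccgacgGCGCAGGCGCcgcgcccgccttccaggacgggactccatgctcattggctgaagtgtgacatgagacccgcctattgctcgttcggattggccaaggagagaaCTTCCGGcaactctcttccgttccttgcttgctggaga
Cox6a1: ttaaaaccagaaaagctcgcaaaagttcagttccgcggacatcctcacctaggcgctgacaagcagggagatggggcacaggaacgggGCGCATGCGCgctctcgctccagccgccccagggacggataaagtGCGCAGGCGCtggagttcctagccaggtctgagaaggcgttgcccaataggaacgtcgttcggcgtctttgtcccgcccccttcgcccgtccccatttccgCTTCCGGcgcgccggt
Cox7b2: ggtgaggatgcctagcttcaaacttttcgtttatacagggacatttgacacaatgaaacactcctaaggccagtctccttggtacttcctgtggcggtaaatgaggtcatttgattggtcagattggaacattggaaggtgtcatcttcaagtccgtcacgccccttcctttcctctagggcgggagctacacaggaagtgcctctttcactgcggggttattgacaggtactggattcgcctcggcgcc
The share of G and C bases is 69.6% in the Atp5h window, 62.8% in that of Cox6a1 and 50.4% in that of Cox7b2. A match describes these letters and says nothing of binding in these mice.

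The comparison of nuclei with low-UMI barcodes of the same library asks where in the depth range the members' RNA is found. All 13 mitochondrial and 85 of the 88 tested nuclear members were lower in nuclei (edgeR's quasi-likelihood F test, p adjusted by Benjamini-Hochberg over 17923 genes, threshold 0.05, library as a block). Over all genes tested, 75.8% were called, 39% lower and 36.8% higher, and the median log2 difference was -0.03. The median log2 difference (nuclei minus low-UMI barcodes) was -1.55 for the mitochondrial members, with a range of -1.77 to -1.22, and -1.69 for the nuclear members, with a range of -1.89 to 0.76. All 13 mitochondrial members and 85 nuclear members were lower in each of the 4 libraries. The share of all genes with that order is not given here, and 39% of all genes were called lower.

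mt-Co1 had 1594 and 2672 (trained) and 2959 and 2799 (untrained) CPM in low-UMI barcodes, 2.96-fold its level in nuclei (log2 difference -1.56, SE 0.18, edgeR's adjusted p = 8.72e-05). No library's nuclei came near the level of its low-UMI barcodes. mt-Co3 had 1638, 2863, 2759 and 3034 (log2 difference -1.56, SE 0.18). The largest difference among the mitochondrial members was that of mt-Atp8, with 39.9, 67.6, 64.4 and 91.1 in low-UMI barcodes (log2 difference -1.77, SE 0.11, edgeR's adjusted p = 1.19e-05), and the smallest that of mt-Nd6, with 29.2, 52.5, 55.4 and 51.9 (-1.22, SE 0.18, edgeR's adjusted p = 0.000364). The other mitochondrial genes lay between, from -1.49 for mt-Nd2 to -1.66 for mt-Nd3. Trained 1 was the lowest library in low-UMI barcodes for all of them.

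By complex, the nuclear subunits gave almost the same median. It was -1.68 for complex I (39 of 39 lower), -1.71 for complex III (8 of 8 lower), -1.70 for complex IV (15 lower and 1 higher of 16 tested) and -1.71 for complex V (17 of 17 lower). Cox4i1 rose from 497, 489, 771 and 511 CPM in nuclei to 1383, 1928, 2345 and 1892 in low-UMI barcodes (3.39-fold, log2 difference -1.76, SE 0.16). Atp5b went to 719, 1017, 1089.7 and 1063 (log2 difference -1.59, SE 0.15), and Ndufa4 to 1037, 1383, 1803 and 1284 (-1.77, SE 0.15). The members with the smallest adjusted p, which edgeR's test gave as 1.19e-05 to 3 digits for several of them, included Ndufa8 at -1.65, Atp5j2 at -1.73, Ndufa9 at -1.42, Ndufa3 at -1.64 and Ndufa5 at -1.78. Ndufa5 is an accessory subunit of the peripheral arm.

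The 8 assembly factors of complex I ranged from -1.70 to -0.09, with a median log2 difference of -0.49 and 6 of 8 lower. Ndufaf3 and Ndufaf8 had differences of -1.70 and -1.70, close to the subunits. Ndufaf1 had -1.14, Ndufaf2 -0.55, Ndufaf4 -0.43 and Ndufaf5 -0.30. Ndufaf6 at -0.20 (edgeR's adjusted p = 0.147) and Ndufaf7 at -0.09 (edgeR's adjusted p = 0.336) did not pass the test. Ndufaf7, a methyltransferase, had 51.7, 65.3, 62.9 and 64.5 CPM in nuclei and 60.9, 63.8, 60.3 and 70.4 in low-UMI barcodes, and the ranges overlapped.

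The length of the gene moved with the difference. In the 74 tested nuclear members with a gene under 20 kb the median was -1.70 with 73 lower, and in the 12 with a gene of at least 20 kb it was -0.92 with 10 lower and 1 higher. Across the 86 nuclear members with a RefSeq gene length, Spearman's rho of length with the log2 difference was 0.498, and across 16285 of all genes tested it was 0.512; genes share libraries and are not independent, so no p is given. The median length was 7.11 kb in the members and 24.1 kb in all genes. Ndufs4, an accessory subunit whose loss is a mouse model of Leigh syndrome, spans 100.3 kb, had 119, 107, 129 and 128 CPM in nuclei and 143, 172, 199 and 179.9 in low-UMI barcodes, and differed by -0.55 (SE 0.10, edgeR's adjusted p = 0.00128). Its level was lower in nuclei than in low-UMI barcodes in every library. Ndufs1, the largest subunit of complex I, spans 33.2 kb and differed by -0.61, and Ndufaf2 spans 106 kb and differed by -0.55.

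A single member was higher in nuclei. Cox7b2, a paralogue of the complex IV subunit gene Cox7b known mainly from testis, spans 105 kb and had 15.2 and 11.8 (trained) and 8.52 and 10.3 (untrained) CPM in nuclei. In low-UMI barcodes it had 9.36, 5.89, 5.04 and 6.48, so each library's nuclei were above its low-UMI barcodes. The difference was 1.69-fold (log2 0.76, SE 0.13, edgeR's adjusted p = 0.000919). Cox7b, by contrast, spans 6.75 kb, went from 158, 153, 268 and 169 in nuclei to 420.2, 547, 783 and 556 in low-UMI barcodes and differed by -1.66 (SE 0.12).

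**Figure D3:**
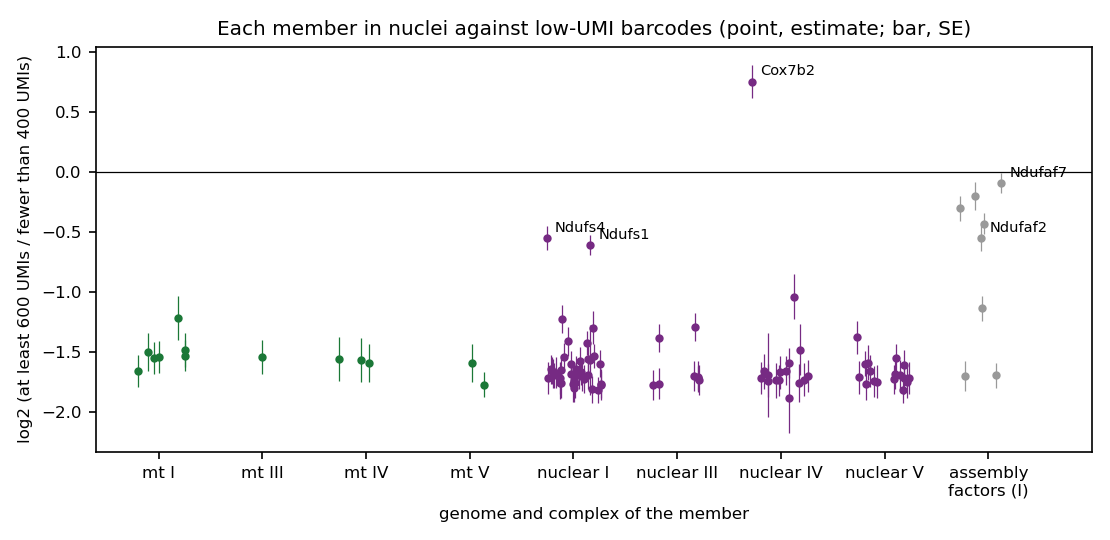
Log2 difference of each tested member between nuclei (at least 600 UMIs) and low-UMI barcodes (fewer than 400 UMIs), grouped by genome and complex; points are edgeR estimates, bars standard errors, and the line marks 0. The medians are -1.55 for the mitochondrial and -1.69 for the nuclear members; subunits reach up to -0.55 (Ndufs4), assembly factors up to -0.09 (Ndufaf7), and Cox7b2 is the 1 member above 0, at 0.76.

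Other genes of the pathway, read from lists chosen with earlier results of these data known, were compared in the same fit. All 6 genes of complex II and of the cytochrome c step were lower in nuclei (median -1.38), with Cyc1, the cytochrome c1 of complex III, at -1.61, Cycs, cytochrome c itself, at -1.70 and Sdha, the flavoprotein of complex II, at -1.11. All 4 carrier and inhibitor genes were lower (median -1.62), among them Slc25a5 at -1.72 and Slc25a4 at -1.66, which exchange ADP for ATP. Of 33 assembly factors outside the naming rule, 20 were lower and 5 higher (median -0.69). Of 13 genes of mitochondrial transcription and replication, 7 were lower and 0 higher (median -0.55), including Slirp at -1.53, an RNA-stabilising factor, and Tfam at -1.27, which packages mitochondrial DNA.

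Metabolic lists upstream of the respiratory chain went the same way. In glycolysis 15 of 16 tested genes were lower (median -1.56), with Pgk1 at -1.73 and Tpi1 at -1.62. In the tricarboxylic acid cycle 11 of 14 were lower and 1 was higher (median -0.87), with Idh3a at -1.35 and Fh1 at -1.45. The list of regulators of mitochondrial biogenesis differed in sign, with 4 of 9 higher in nuclei, 2 lower and a median of 0.10. Esrrg, an orphan nuclear receptor, had 182, 194, 205 and 220.5 CPM in nuclei against 87.8, 47.7, 40 and 44.4 in low-UMI barcodes (log2 difference 1.91, SE 0.19). The coactivator gene Ppargc1b differed by 1.29 and Nrf1 by 1.26.

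Markers of other cell types moved with this comparison. The summed level of the 7 oligodendrocyte markers was 969.7, 887, 834 and 879 CPM in nuclei and 1913, 2676, 1865 and 2177 in low-UMI barcodes, and that of the 7 microglia markers 274, 210.5, 263 and 294 and 571, 530.2, 558 and 870.4. The 8 inhibitory neuron markers went the other way, with 2940.3, 2645, 2278 and 2676 in nuclei and 1514, 1008, 773 and 1014 in low-UMI barcodes. So did the summed markers of dentate granule, CA1, CA3, thalamic and cortical excitatory neurons and of oligodendrocyte precursors, in every library. The astrocyte, endothelial, choroid plexus and ependymal sums did not keep the same direction in all libraries. The part of these markers in the members' difference was not tested. The counts of members called in either direction stayed at 13 mitochondrial and 85 to 87 nuclear under each of the 11 other settings tried. Of all genes 52.3% to 80.3% were called in those settings.

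In the contrast of training, no member passed the test in nuclei, although most estimates were negative. With edgeR 0% of the 17455 genes tested passed. There were 1094 genes whose unadjusted p was under 0.05, and the 4 genes that DESeq2 called include no member. The median log2 difference (trained minus untrained) was -0.47 for the mitochondrial members, -0.36 for the nuclear members and 0.00 for all genes. All 13 mitochondrial members had negative estimates, from -0.68 to -0.25, of which 11 had an unadjusted p under 0.05. The adjusted values of the 13 ran from 0.792 to 0.843 in edgeR's test. In 11 of the 13 both trained libraries lay below both untrained libraries, as did 22.1% of all genes tested. Among the nuclear members 81 of 88 estimates were negative, 26 had an unadjusted p under 0.05, and 49 had both trained libraries below both untrained.

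mt-Nd2, at the levels given above, had the largest estimate of the mitochondrial members (-0.68, SE 0.14, edgeR's adjusted p = 0.792). mt-Co2 had -0.62 (SE 0.13), mt-Atp6 -0.55 (SE 0.12), mt-Co1 -0.48 (SE 0.15) and mt-Co3 -0.43 (SE 0.13), all with an adjusted p of 0.792. mt-Atp8, mt-Nd4, mt-Cytb, mt-Nd1, mt-Nd5 and mt-Nd3 had -0.62, -0.49, -0.47, -0.45, -0.45 and -0.40. The overlapping pair, mt-Nd4l and mt-Nd6, had -0.25 and -0.36.

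Among the abundant nuclear members, Ndufa13 had an estimate of -0.56 (SE 0.20), Cox6c -0.50 (SE 0.21) and Ndufb9 -0.45 (SE 0.17), each with both trained libraries below both untrained. Uqcrh had -0.44, Cox8a -0.44, Atp5h -0.39, Uqcrq -0.37, Ndufa4 -0.35, Cox4i1 -0.34, Atp5g1 -0.31, Uqcr11 -0.29 and Atp5b -0.24. The assembly factors of complex I had a median of -0.07. By complex, the medians of the nuclear subunits were -0.36 for I, -0.38 for III, -0.41 for IV and -0.37 for V. Cox7b2 was the 1 member with both trained libraries above both untrained (0.53, SE 0.21, unadjusted p = 0.0323, edgeR's adjusted p = 0.792), where 14.8% of all genes had that order.

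These estimates moved with single libraries. Without untrained 1 the median of the nuclear members was -0.08 and that of the mitochondrial members -0.41, and Ndufa4, Uqcr11, Cox8a and mt-Nd6 turned positive (0.056, 0.23, 0.0027 and 0.055). Without untrained 2 the medians were -0.62 and -0.53, and 34 nuclear and 2 mitochondrial members were called, among 189 of 17897 genes. Depth differed between the groups too, with medians of 736 and 887 UMIs per trained and 957.5 and 1079 per untrained nucleus. In barcodes of 600 to below 1000 UMIs alone the medians were -0.65 for the mitochondrial and -0.56 for the nuclear members, again with no member called. The part of depth and of free RNA in the estimates was not tested.

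Among the lists of other genes, none was called in the contrast of training in nuclei. The median was -0.38 for complex II and cytochrome c, -0.33 for the carriers, -0.16 for glycolysis, -0.15 for mitochondrial transcription and replication, -0.13 for the further assembly factors and -0.07 for the tricarboxylic acid cycle. The regulators of mitochondrial biogenesis had a median of 0.16, and in 5 of 9 both trained libraries lay above both untrained, as in 14.8% of all genes. Among them Gabpa had 0.29, Pprc1 0.29 and Esrra 0.24.

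In low-UMI barcodes the contrast of training also called no member, and here trained 1 stood apart. With edgeR 0% of 16457 genes passed, 3120 had an unadjusted p under 0.05, and the 270 genes that DESeq2 called include no member. The median log2 difference was -0.49 for the mitochondrial and -0.49 for the nuclear members, against 0.03 for all genes. For mt-Co1 trained 1 had 1594 CPM while the other 3 libraries had 2672 to 2959. Both trained libraries were below both untrained in 3 of 13 mitochondrial and 57 of 88 nuclear members, against 20.7% of all genes. mt-Co1 had an estimate of -0.51 (SE 0.37, edgeR's adjusted p = 0.449). Without trained 1 the medians were -0.16 and -0.28 with no member called, and without trained 2 they were -0.98 and -0.74, with all 13 mitochondrial and 75 nuclear members called, among 4974 of 17328 genes.

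Whether the contrast of training differed between the depth ranges was tested as an interaction. It called 0% of 17923 genes; 1504 had an unadjusted p under 0.05, and no member was among these. The median interaction (nuclei minus low-UMI barcodes) was 0.04 for the mitochondrial, 0.12 for the nuclear members and -0.05 for all genes. Without trained 2, 10 of 101 members were called, where 16.4% of all genes were.

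Nuclei were then sorted into classes by marker genes, none of which is a member. A nucleus took a class when it held UMIs of at least 2 of the class's markers and its score exceeded that of the next class by a log likelihood of at least 3, and the class is called "-like" since it rests on these few markers. The 7 classes with at least 30 nuclei in every library held 9655 of 47110 nuclei (20.5%), while 35961 (76.3%) took no class. The dentate granule-like class had 1257 nuclei, led by Glis3, Maml2 and Dock10, and the CA1 pyramidal-like class 2011, led by Gm2164, Man1a and Gm10754. The CA3 pyramidal-like class had 610, led by Grik4, Nectin3 and Cpne4, the inhibitory neuron-like class 2822, led by Erbb4, Kcnmb2 and Nxph1, and the thalamic excitatory-like class 1116, led by Lef1, Synpo2 and Ntng1. The oligodendrocyte-like class had 739, led by Prr5l, St18 and Neat1, and the astrocyte-like class 1100, led by Gpc5, Slc1a3 and Mertk. These thresholds were set after the data were seen, with 2764 nuclei of the 7 classes just outside them and 1910 just inside. Of the leading genes named, only Gm2164, Gm10754, Synpo2, Neat1 and Mertk were not markers used for the sorting. The lead of the others was fixed by the sorting and does not bear on the class names.

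Classes differed in the share of UMIs that the members took. The mitochondrial members took 0.287, 0.413, 0.579 and 0.554% in astrocyte-like and 0.318, 0.307, 0.604 and 0.456% in oligodendrocyte-like nuclei. In CA3 pyramidal-like nuclei they took 0.249, 0.204, 0.331 and 0.274%, the lowest share of the 7 classes in 4 of 4 libraries, but its exact binomial interval lay apart from those of all other classes in trained 2 only. The astrocyte-like or oligodendrocyte-like class was the highest in all libraries but trained 1, where the dentate granule-like class came first. That class held 0.325, 0.310, 0.413 and 0.404%, the inhibitory neuron-like class 0.281, 0.286, 0.462 and 0.392%, the CA1 pyramidal-like class 0.280, 0.278, 0.376 and 0.356% and the thalamic excitatory-like class 0.282, 0.266, 0.358 and 0.274%. Both trained libraries lay below both untrained ones in 6 of the 7 classes, and in the thalamic excitatory-like class they overlapped. The exact binomial intervals reach 16.9% of the share in the smallest sums.

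The nuclear members showed a like order. They took 1.24, 1.10, 2.03 and 1.07% in oligodendrocyte-like and 0.955, 1.03, 1.95 and 1.25% in astrocyte-like nuclei, against 0.952, 0.717, 1.13 and 0.734% in CA3 pyramidal-like and 0.985, 0.792, 1.15 and 0.727% in thalamic excitatory-like nuclei. Between them lay the dentate granule-like class with 1.01, 0.946, 1.36 and 1.01%, the inhibitory neuron-like class with 0.982, 0.926, 1.5 and 0.924% and the CA1 pyramidal-like class with 1.02, 0.884, 1.26 and 0.885%. In untrained 1 every class was above the same class of the other libraries, and in trained 1 the astrocyte-like class, with 62 nuclei, ranked sixth of the 7. The trained and untrained libraries overlapped in all but the dentate granule-like and astrocyte-like classes.

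**Figure D4:**
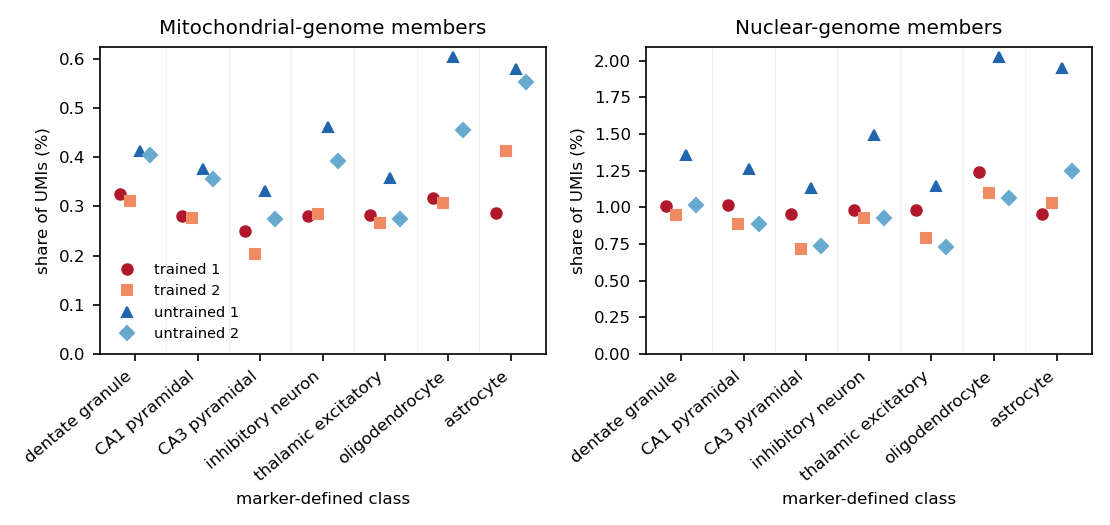
Share of UMIs (percent, linear axis from 0) of the mitochondrial (left) and nuclear (right) members in 7 marker-defined classes of nuclei, with 1 symbol for each library. Oligodendrocyte-like and astrocyte-like nuclei reach 0.604% and 0.579% of mitochondrial members in untrained 1, and CA3 pyramidal-like nuclei have the lowest mitochondrial share in all 4 libraries, with an interval apart from the other classes in trained 2 only.

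In the test over all classes, with the library as a block, 9 of 13 mitochondrial and 46 of 81 nuclear members tested differed between classes (the same kind of edgeR test, p adjusted over 8661 genes). This is close to the 57.2% of all genes that did. The count of 55 of 94 members became 20 of 92 without untrained 1 (47.3% of all genes), 36 of 92 without untrained 2 (48% of all genes) and 6 of 85 in barcodes of 600 to below 1000 UMIs alone (45.3% of all genes). Each class was then compared with the mean of the other tested classes.

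Astrocyte-like nuclei were higher in 9 mitochondrial and 27 nuclear members and lower in none, where 21.3% of all genes were called, 11.3% higher and 9.94% lower. The medians were 0.42 for the mitochondrial and 0.28 for the nuclear members, against 0.01 for all genes. mt-Co1 had 837, 898, 1382 and 1222 CPM there, and the log2 difference was 0.43 (SE 0.09, edgeR's adjusted p = 3.77e-05). In 4 of 4 libraries this was above CA3 pyramidal-like nuclei, which had 624, 458, 781 and 572. mt-Atp6 had 361, 477, 747 and 692 (log2 difference 0.46, SE 0.10), mt-Cytb 0.47 and mt-Co2 0.41. Of the nuclear members, Ndufb5, an accessory subunit of complex I, had 76.1, 114, 201 and 146 CPM (log2 difference 0.60, SE 0.15) and Cox6b1 had 190.2, 186, 404 and 171 (0.45, SE 0.12). Untrained 1 was the highest library for both. The 36 calls became 12 of 92 without untrained 1 (13.3% of all genes were called there), 16 of 92 without untrained 2 (14.5%) and 5 of 85 at 600 to below 1000 UMIs (20.3%).

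Oligodendrocyte-like nuclei were higher in 23 nuclear members and in 1 mitochondrial member, mt-Co3, and lower in none, where 19.5% of all genes were called, 10.6% higher and 8.89% lower. The medians were 0.24 and 0.22. mt-Co3 had 799, 836, 1409 and 1057 CPM (log2 difference 0.29, SE 0.10, edgeR's adjusted p = 0.0212). Of the 11 nuclear subunits of complex IV tested, 8 were higher. Cox6b1 had 297, 191, 392 and 187 (log2 difference 0.52, SE 0.13, edgeR's adjusted p = 0.000706) and Cox4i1 557, 623, 1042 and 584 (0.40, SE 0.10). For Cox4i1 untrained 1 stood above the other 3 libraries, and for Cox6b1 both untrained 1 and trained 1 were high. Cox7b had a difference of 0.47, Cox7a2 of 0.43, Ndufa12 of 0.54 and Atp5g3 of 0.48. The 24 calls became 1 of 92 without untrained 1, where 13.8% of all genes were called, and 8 of 85 at 600 to below 1000 UMIs, where 17.9% were.

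CA3 pyramidal-like nuclei were lower in 6 mitochondrial and 10 nuclear members and higher in none, where 18.5% of all genes were called, 6.81% lower and 11.7% higher. The medians were -0.35 and -0.26, against -0.01 for all genes. Ndufb7, an accessory subunit of complex I, had 53.5, 36.1, 59.3 and 66.4 CPM (log2 difference -0.78, SE 0.20, edgeR's adjusted p = 0.00121), from 3 UMIs in trained 1 to 23 in untrained 2. mt-Co3 had 552, 498, 753 and 589 (-0.40, SE 0.10). The difference was -0.36 for mt-Co1, -0.45 for mt-Nd4, -0.39 for mt-Atp6 and -0.57 for Atp5g3. The 16 calls became 10 of 93 without trained 2 (14.6% of all genes), 7 of 92 without untrained 1 (14.6%), 8 of 92 without untrained 2 (13.1%) and 8 of 86 when each nucleus was thinned to 600 UMIs (13.9%).

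Thalamic excitatory-like nuclei were lower in 4 mitochondrial and 26 nuclear members and higher in 2, where 37% of all genes were called, 19.4% lower and 17.5% higher. The medians were -0.23 for the mitochondrial and -0.28 for the nuclear members, against -0.07 for all genes. Cox6c had 224, 155, 352 and 191 CPM (log2 difference -0.44, SE 0.11, edgeR's adjusted p = 0.000406), and Cox4i1 had 439, 331, 530.0 and 350.3 (-0.35, SE 0.10). Trained 2 and untrained 2 were the low libraries for both. Atp5j2 had a difference of -0.52, Cox6b1 of -0.50, Ndufs5 of -0.46 and Ndufa1 of -0.71. The 32 calls became 8 of 92 without untrained 1 (29.1% of all genes), 13 of 92 without untrained 2 (28.3%), 13 of 86 when thinned to 600 UMIs (31%) and 2 of 85 at 600 to below 1000 UMIs (15%).

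The 2 higher members were Cox7b2 and the assembly factor gene Ndufaf5. Ndufaf5 had 18.7, 49.5, 37.2 and 59.8 CPM in thalamic excitatory-like nuclei (log2 difference 0.61, SE 0.21, edgeR's adjusted p = 0.0126), from 2 UMIs in trained 1 to 36 in untrained 2. Cox7b2 had 28, 46.4, 52.7 and 49.8 CPM, from 3, 15, 34 and 30 UMIs. In inhibitory neuron-like nuclei it had 27.2, 14.6, 10.7 and 15.2, and in CA1 pyramidal-like nuclei 0, 9.70, 4.74 and 6.57. The thalamic excitatory-like class was the highest in trained 2, untrained 1 and untrained 2, whereas in trained 1 it rested on 3 UMIs and the astrocyte-like, dentate granule-like and oligodendrocyte-like classes, with 3, 2 and 2 UMIs, gave higher levels.

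The difference of Cox7b2 was 2.44 on the log2 scale (SE 0.27, edgeR's adjusted p = 2.79e-14) and stayed between 2.19 and 2.78 in the 7 other settings in which the gene could be tested. Its neighbour on the chromosome, Gabra4, a GABA-A receptor subunit gene 21.5 kb away, had 663, 479.8, 440.1 and 536 CPM in the same nuclei and 141, 111, 109 and 82.1 in CA1 pyramidal-like nuclei. Gabra4 differed by 2.04 (SE 0.09) in thalamic excitatory-like nuclei. Whether reads from one gene were counted for the other was not tested. Cox7b in thalamic excitatory-like nuclei had 121, 149, 169 and 119.5 CPM, a difference of -0.33 (SE 0.13), opposite in sign to its paralogue.

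**Figure D5:**
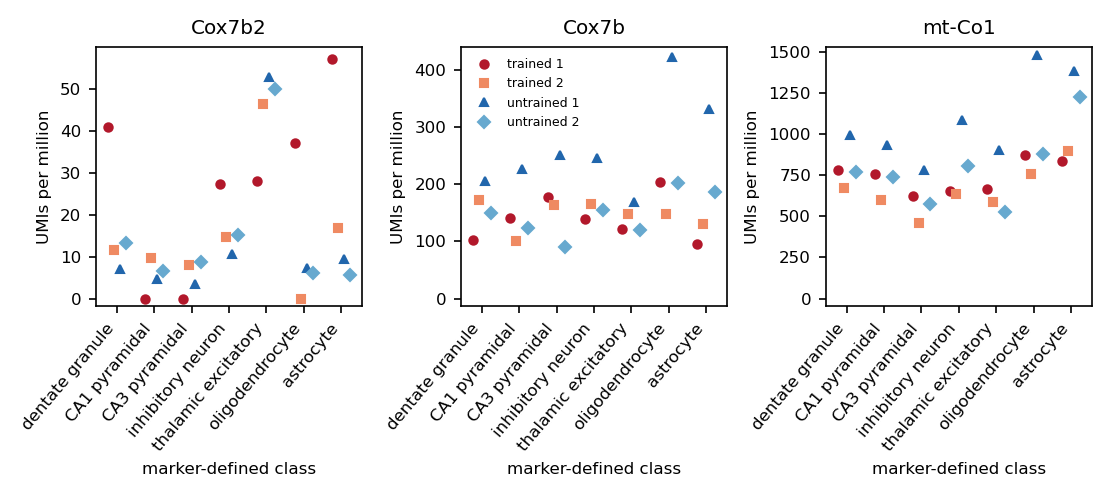
CPM (linear axis) of Cox7b2, Cox7b and mt-Co1 in 7 marker-defined classes of nuclei, with 1 symbol for each library. Cox7b2 is highest in thalamic excitatory-like nuclei in 3 libraries, at 46.4, 52.7 and 49.8, while the trained 1 points of the dentate granule-like, oligodendrocyte-like and astrocyte-like classes rest on 2 or 3 UMIs each; mt-Co1 reaches 1382 and 1222 in astrocyte-like nuclei of the untrained libraries.

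The other 3 classes had at most 2 called members. CA1 pyramidal-like nuclei were lower in 2 members, Ndufs4 (-0.35, SE 0.12, edgeR's adjusted p = 0.0212) and Atp5mpl (-0.40, SE 0.14), where 11.1% of all genes were lower, and both calls were lost without either untrained library. Inhibitory neuron-like nuclei were higher in 1 member, Ndufaf6, with 34.9, 35.3, 19.7 and 30.5 CPM (0.55, SE 0.22, edgeR's adjusted p = 0.0486), where 13.6% of all genes were higher, and the call was lost without untrained 2. Dentate granule-like nuclei differed in no member, where 22.3% of all genes were called, with 1 mitochondrial and 1 nuclear member at an unadjusted p under 0.05.

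Depth moved with these class differences. CA3 pyramidal-like and thalamic excitatory-like nuclei, which were low in the members, had median UMI counts of 824.5, 1348, 1495 and 1764.5 and 751, 1225, 1403 and 1853. Astrocyte-like and oligodendrocyte-like nuclei, which were high, had 746, 828, 758 and 822 and 704, 834.5, 788 and 850.0. Thinned to 600 UMIs each, astrocyte-like nuclei had 31 of 86 members called (24.8% of all genes) and oligodendrocyte-like nuclei 22 of 86 (21.3%). Thinning keeps the expected share of each nucleus, so it cannot remove a relation of share with depth. Among nuclei of 600 to below 1000 UMIs the calls were 5 of 85 (20.3% of all genes) and 8 of 85 (17.9%). Without TMM scaling the median of all genes moved from 0.01 to 0.14 in astrocyte-like and from -0.01 to -0.15 in CA3 pyramidal-like nuclei, and 61 and 40 of 94 members were called (23.4% and 20.6% of all genes).

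The related lists varied between classes as well. In astrocyte-like nuclei 5 of 14 genes of the tricarboxylic acid cycle were higher, and 4 of 16 of glycolysis, where 11.3% of all genes were. Of the glycolysis genes, Aldoc, an aldolase known as an astrocyte marker, stood at 1.02 (SE 0.15). The coactivator gene Ppargc1a was higher in astrocyte-like nuclei (0.60) and lower in oligodendrocyte-like nuclei (-0.96). In oligodendrocyte-like nuclei 3 of 7 biogenesis regulators were lower and none was higher, where 8.89% of all genes were lower and 10.6% higher. In thalamic excitatory-like nuclei 2 of these regulators were higher, among them Esrrg (0.64, SE 0.11), where 17.5% of all genes were higher. In thalamic excitatory-like nuclei 6 of 16 genes of glycolysis were lower and 1, Pfkp, was higher (0.92, SE 0.11). Of all genes 19.4% were lower and 17.5% higher there.

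Within classes, the contrast of training called no member. The tested members' medians were negative in each class, at -0.41 (mitochondrial) and -0.33 (nuclear) in dentate granule-like, -0.41 and -0.22 in CA1 pyramidal-like, -0.44 and -0.27 in CA3 pyramidal-like and -0.53 and -0.34 in inhibitory neuron-like nuclei. They were -0.22 and -0.17 in thalamic excitatory-like, -0.70 and -0.40 in oligodendrocyte-like and -0.61 and -0.69 in astrocyte-like nuclei. The median of all genes was no lower than -0.03 in any class. Of all genes tested edgeR called 0.0143% in dentate granule-like, 0.0111% in CA1 pyramidal-like, 0.0199% in CA3 pyramidal-like, 0.0385% in inhibitory neuron-like, 0.014% in thalamic excitatory-like and 0% in oligodendrocyte-like and astrocyte-like nuclei. Between 181 and 646 genes had an unadjusted p under 0.05 in a class, where 5021 to 10398 genes were tested. DESeq2 called 0 or 1 gene in each class and no member.

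The order of the libraries was read beside that of all genes. Both trained libraries lay below both untrained in 8 of 11 mitochondrial and 33 of 80 nuclear members in dentate granule-like nuclei, where 20.3% of all genes had that order. The counts were 10 of 13 and 15 of 81 in CA1 pyramidal-like nuclei (17.6% of all genes) and 4 of 10 and 16 of 73 in CA3 pyramidal-like nuclei (16.5%). They were 5 of 11 and 10 of 80 in thalamic excitatory-like nuclei (16.2%) and 9 of 11 and 16 of 74 in oligodendrocyte-like nuclei (15.7%).

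In astrocyte-like nuclei the median of the nuclear members was the most negative of the 7 classes. There 5 of 12 mitochondrial and 28 of 77 nuclear members had an unadjusted p under 0.05. The class had 6466 genes tested, of which no more than the upper end of the range given above lay under that limit. The exact share of all genes in this class is not given here. Both trained libraries lay below both untrained in 9 of 12 and 43 of 77, against 22.1% of all genes. Cox4i1 had 361, 548, 1032 and 604 CPM there and an estimate of -0.75 (unadjusted p = 0.0257 in edgeR's test). Trained 1, with 62 nuclei, was the lowest and untrained 1 the highest. In inhibitory neuron-like nuclei, the largest class, 10 of 13 mitochondrial and 18 of 82 nuclear members had an unadjusted p under 0.05. Here 10398 genes were tested, again with no more than the upper end of that range under the limit and the exact share not given. Both trained libraries lay below both untrained in 11 of 13 and 23 of 82, against 18.7% of all genes. mt-Co1 had 652, 638, 1082 and 808 and an estimate of -0.53 (unadjusted p = 0.00889 in edgeR's test), with the trained libraries close together and below both untrained.

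Without untrained 2, 32 of 90 members were called in astrocyte-like nuclei (3.72% of all genes) and 27 of 86 in oligodendrocyte-like nuclei (2.57% of all genes). Without untrained 1 the members' median moved to -0.31 and -0.01 there. In thalamic excitatory-like nuclei the median of all tested members turned from -0.18 to 0.17 without untrained 1. At 600 to below 1000 UMIs 7 of 84 members were called in astrocyte-like nuclei (6.43% of all genes) and 7 of 77 in oligodendrocyte-like nuclei (4.36% of all genes). Whether the contrast of training differed between the classes was tested too, and 0% of 9360 genes were called; 478 had an unadjusted p under 0.05, of which 4 were nuclear members.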

How the data were processed

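Chromium 3' chemistry (v3.1) was used for the single-nucleus libraries, per the labels. The deposited matrices hold raw UMI counts. Their headers name Cell Ranger 7.0.0, while the submitters' processing notes name Cell Ranger 8, STAR and GRCm39. The members, lists and tests were chosen with earlier results of these data known. Counts were summed per library over barcodes with at least 600 or fewer than 400 UMIs and over marker-defined classes, for which 13 marker lists were used. No doublet caller was run, and barcodes with markers of several classes fell outside the margin. Sums were fitted in R 4.3.3 with edgeR 4.0.16 (filterByExpr, TMM, quasi-likelihood F test) and Benjamini-Hochberg adjustment over all genes tested; the SE is the log2 difference divided by the square root of F. CPM values use library totals without TMM. Named in full are the mitochondrial members, the 3 nuclear subunits with the most UMIs in each complex, tissue paralogues, and up to 6 called members in each direction with the smallest p; Cox7b2 and the long genes were also singled out after their values were seen. DESeq2 1.42.0, other scalings, filters and depth limits, thinning, a replicate block and each library left out were alternatives; the range of 600 to below 1000 UMIs was added after the data were seen. On simulated counts for 17412 genes the contrast of training recovered 68% of log2 changes of 1 and 97% of log2 changes of 2. It also called 7 unchanged genes. The simulation used a single fixed dispersion, changed well-counted genes only and held no shift of a whole library. No log2 change smaller than 1 was simulated, so these rates need not hold for the members here. Levels per kilobase use GENCODE vM21 transcripts.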

Additional observations from a re-analysis of the deposited data

How the results depend on the processing

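The difference between nuclei and low-UMI barcodes kept 13 mitochondrial and 85 to 87 nuclear members called in every setting, where 52.3% to 80.3% of all genes were called. In the contrast of training in nuclei, 0 mitochondrial and 0 nuclear members became 4 and 6 with no count filter (159 of 26014 genes); leaving out 1 library at a time gave 0 to 2 and 0 to 34. The estimate of mt-Nd6 ran from -0.67 without untrained 2 to 0.055 without untrained 1, Ndufa4 from -0.67 to 0.056, Uqcr11 from -0.68 to 0.23 and Cox8a from -0.78 to 0.0027. In low-UMI barcodes no filter gave 1 and 1 (1363 of 25027 genes), leaving out libraries gave 0 to 13 and 0 to 75, mt-Nd3 ran from -1.08 without trained 2 to 0.037 without trained 1, and mt-Nd6 turned to 0.062 below 300 UMIs. The interaction of training and depth range gave 0 to 10 members over left-out libraries, and that of training and class 0 in all settings.

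Training within classes called 1 member in dentate granule-like nuclei at 600 to below 1000 UMIs (0.0579% of all genes). In that range 7 were called in each of the oligodendrocyte-like and astrocyte-like classes (4.36% and 6.43% of all genes). Over left-out libraries the ranges were 0 to 1 in inhibitory neuron-like, 0 to 27 in oligodendrocyte-like and 0 to 32 in astrocyte-like nuclei. With the replicate block 1 member was called in oligodendrocyte-like nuclei and 0 elsewhere. The labels state no animal, litter or day shared by same-numbered libraries, so the numbers were not taken to pair samples. Deviations of same-numbered libraries correlated at -0.00245. With 2 libraries per group the other pairing gives the same value with opposite sign, so it cannot exclude a shared batch. In low-UMI barcodes the replicate block moved the called genes from 0 to 843 of 16457 (5.12%), with 0 members among them.

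The 55 members differing between classes became 6 at 600 to below 1000 UMIs (45.3% of all genes). Over left-out libraries the count was 20 to 55 (47.3% to 57.6% of all genes). Under the stricter gate, no TMM, thinning and 600 to below 1000 UMIs in turn, CA1 pyramidal-like nuclei had 1, 7, 1 and 0 calls. Of all genes 20.8, 24.9, 23.3 and 20.6% were called there. Inhibitory neuron-like nuclei had 0, 2, 2 and 0 calls (24.2, 23.8, 21.9 and 18.9% of all genes). Thalamic excitatory-like nuclei had 21, 54, 13 and 2 (36.3, 39.9, 31 and 15% of all genes). No TMM gave 40 in CA3 pyramidal-like, 42 in oligodendrocyte-like and 61 in astrocyte-like nuclei (20.6, 20.7 and 23.4% of all genes). Thinning gave 8 in CA3 pyramidal-like nuclei (13.9% of all genes). The range of 600 to below 1000 UMIs gave 8 in oligodendrocyte-like and 5 in astrocyte-like nuclei (17.9% and 20.3% of all genes). Left-out libraries gave 0 to 1 (dentate granule-like), 0 to 2 (CA1), 7 to 18 (CA3), 0 to 1 (inhibitory), 8 to 28 (thalamic), 1 to 26 (oligodendrocyte-like) and 12 to 38 (astrocyte-like). In the same order, 17.9 to 22, 18.7 to 24.2, 13.1 to 18.3, 18.3 to 23.6, 28.3 to 36.5, 13.6 to 18.9 and 13.3 to 22% of all genes were called. Between 92 and 94 members were tested in these fits. Ndufs4 in CA1 pyramidal-like nuclei turned to 0.042 at 600 to below 1000 UMIs. The causes were not tested. For single members, 1041 alternative values kept direction and call, 42 gained a call, 40 lost it and 7 changed sign. A lone library left in a group is assumed to vary like the others. At least 1000 UMIs could be run within classes for inhibitory neuron-like nuclei only, and 600 to below 1000 UMIs not for CA3 pyramidal-like nuclei. Depth limits the classes most, where sums of trained 1 hold few UMIs.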
